A study of Homo sapiens with 2 samples.

Results

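The 34 genes described here encode parts of the anaphase-promoting complex or cyclosome (APC/C), the spindle assembly checkpoint, the outer kinetochore and the chromosomal passenger complex, and separase with its inhibitor. They were selected by gene name and role by a rule that uses no measured level, although earlier results of these data were known when it was set. All 34 had a value among the 16770 named genes of the series. RNA bound to LRPPRC, a leucine-rich pentatricopeptide repeat protein of mitochondria and cytoplasm, was precipitated with 2 μg of anti-LRPPRC antibody from lysates of A549, a lung adenocarcinoma cell line labelled as wild type and epithelial. Both libraries, replicate 1 and replicate 2, are of this 1 condition, and the labels name no treatment. The study's text calls the replicates biological, while its series description calls them technical, so their spread may be technical only. The values are FPKM (fragments per kilobase of transcript, scaled to mapped fragments). They are levels in the immunoprecipitate and hold no comparison with input or IgG, whose libraries were not used here. With 1 condition and 2 libraries no test was made, and a difference between genes is described by whether the values of both libraries overlapped. Of 5 epithelial markers, KRT8 (337 FPKM), KRT18 (51.1) and KRT19 (12.1) were present, whereas the E-cadherin gene CDH1 (1.33) and EPCAM (0.43) were low. The 3 blood and endothelial markers with a value were all under 1 FPKM.

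The APC/C is a ubiquitin ligase that marks securin and mitotic cyclins for degradation and so starts anaphase and mitotic exit. It needs a coactivator, CDC20 in mitosis or its homologue FZR1 in late mitosis and G1. Until every kinetochore is attached to spindle microtubules, checkpoint proteins gathered at the outer kinetochore hold CDC20 inactive. The APC/C subunits are generally described as steady through the cell cycle, while many checkpoint and kinetochore transcripts are made in G2 and mitosis. Transcription of many of the latter depends on a promoter element, the cell cycle genes homology region (CHR), often placed downstream of CCAAT boxes.

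CHR letters were found in most checkpoint and kinetochore promoters and in few APC/C promoters. RefSeq promoter windows on GRCh38.p14, from 250 bases before to 50 bases after the annotated start, were matched for 30 of the 34 genes, and BUB3, TTK, KNTC1 and BIRC5 had no entry. The CHR letters TTTGAA or TTCGAA, searched on both strands, were found in 11 of 16 checkpoint and kinetochore promoters (68.8%), in 2 of 12 APC/C subunit promoters (16.7%) and in both coactivator promoters. Of all 27305 promoters of the table, 16.6% held these letters, as did 10.9% of the 8234 promoters of named genes with a mean of at least 1 FPKM. Counting only letters that began between 50 bases before the start and the end of the window, the shares were 62.5% for checkpoint and kinetochore genes (10 of 16), 8.33% for APC/C subunits (ANAPC1 alone), 0 of 2 for the coactivators, 5.05% for all promoters and 3.16% for those of named genes with at least 1 FPKM. The CCAAT letters, also on both strands, were in 11 of 16 checkpoint and kinetochore promoters, 5 of 12 APC/C subunit promoters and 35.7% of all promoters. Both elements occurred together in 8 of 16 checkpoint and kinetochore promoters, in none of the 12 APC/C subunit promoters and in 6.58% of all promoters. A match of letters is a description and not a binding site.

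The 100 bases before the start are shown for a coactivator, for 4 checkpoint and kinetochore genes that carry CHR letters there, and for 2 APC/C subunits that do not. Capitals mark CHR letters and CCAAT letters on either strand. In CDCA8 a CHR and a CCAAT match share bases.
CDC20 (chr1:43358881-43358980, plus strand): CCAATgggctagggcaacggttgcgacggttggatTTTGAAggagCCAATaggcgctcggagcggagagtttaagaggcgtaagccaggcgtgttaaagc
CDCA8 (chr1:37692416-37692515, plus strand): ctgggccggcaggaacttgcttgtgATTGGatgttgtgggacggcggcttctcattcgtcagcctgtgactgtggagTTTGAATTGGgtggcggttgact
BUB1B (chr15:40160969-40161068, plus strand): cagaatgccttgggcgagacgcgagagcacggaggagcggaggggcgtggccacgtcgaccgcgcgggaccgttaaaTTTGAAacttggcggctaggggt
ESPL1 (chr12:53268199-53268298, plus strand): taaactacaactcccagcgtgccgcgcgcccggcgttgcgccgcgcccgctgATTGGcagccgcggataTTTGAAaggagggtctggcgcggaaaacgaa
INCENP (chr11:62123911-62124010, plus strand): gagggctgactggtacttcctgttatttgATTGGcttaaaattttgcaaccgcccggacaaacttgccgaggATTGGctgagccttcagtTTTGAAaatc
ANAPC5 (chr12:121352412-121352511, minus strand): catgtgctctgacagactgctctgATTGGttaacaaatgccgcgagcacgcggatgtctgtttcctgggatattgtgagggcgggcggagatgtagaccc
ANAPC4 (chr4:25377163-25377262, plus strand): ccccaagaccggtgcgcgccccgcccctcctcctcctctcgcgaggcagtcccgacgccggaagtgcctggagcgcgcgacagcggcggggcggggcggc
In BUB1, NUF2 and MAD2L1 the CHR letters lay just after the start, and the 30 bases around them are shown with these letters in capitals. BUB1 carried the form TTCGAA.
BUB1 (chr2:110678045-110678074, minus strand): ctgcgcggggtaTTCGAAtcggcggcggct
NUF2 (chr1:163321958-163321987, plus strand): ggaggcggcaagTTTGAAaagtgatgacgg
MAD2L1 (chr4:120066807-120066836, minus strand): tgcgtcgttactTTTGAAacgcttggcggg

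**Figure D1:**
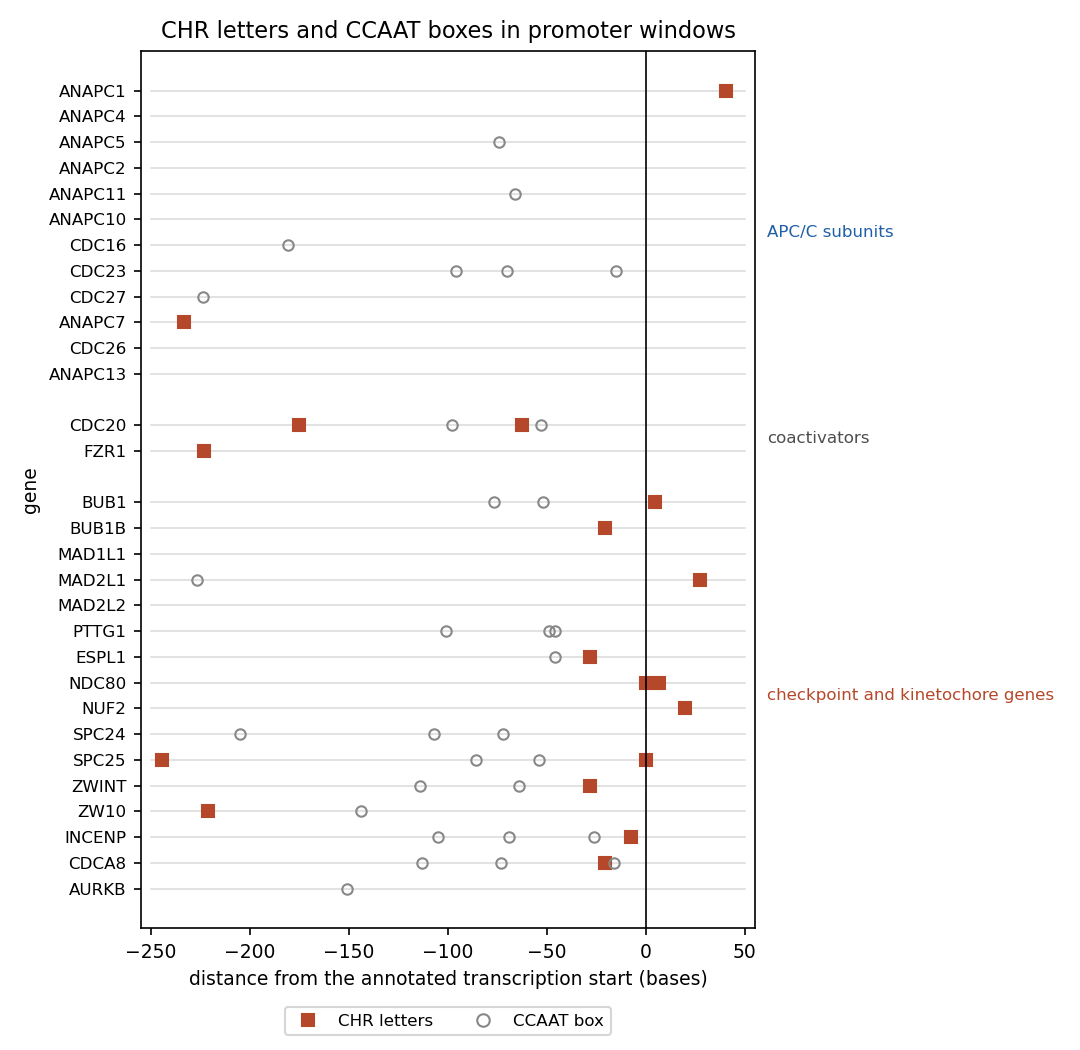
Position of CHR letters (filled squares) and CCAAT boxes (open circles) in the promoter windows of 30 genes (y axis, grouped by class), by distance from the annotated start in bases (x axis). CHR letters lie near the start in 10 of 16 checkpoint and kinetochore promoters, and among APC/C subunits only in that of ANAPC1.

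The RIP levels of both classes covered a wide range. The 34 members had a median of 13.9 FPKM, against 2.48 FPKM over all named genes and 6.60 FPKM over those with a mean of at least 1 FPKM. The median member stood above 81.6% of all named genes. The mean FPKM of the members ran from 0.849 for ANAPC10 to 115 for BIRC5, and 33 of 34 reached a mean of 1 FPKM. The study's threshold for LRPPRC-bound transcripts is FPKM 30, and 8 members (23.5%) had a mean above it, against 8.46% of all named genes. Of the named genes with a mean of at least 1 FPKM, 13.3% were above it. The 8 members were BIRC5, CDC20, BUB1, ANAPC1, ANAPC5, CDCA8, TTK and NUF2. By class they were 2 of 12 APC/C subunits, 1 of 2 coactivators and 5 of 20 checkpoint and kinetochore genes. In the order of means, 21 of the 33 neighbouring pairs had values that did not overlap between the libraries, and 12 pairs overlapped, among them BUB1 and ANAPC1, and TTK and NUF2.

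**Figure D2:**
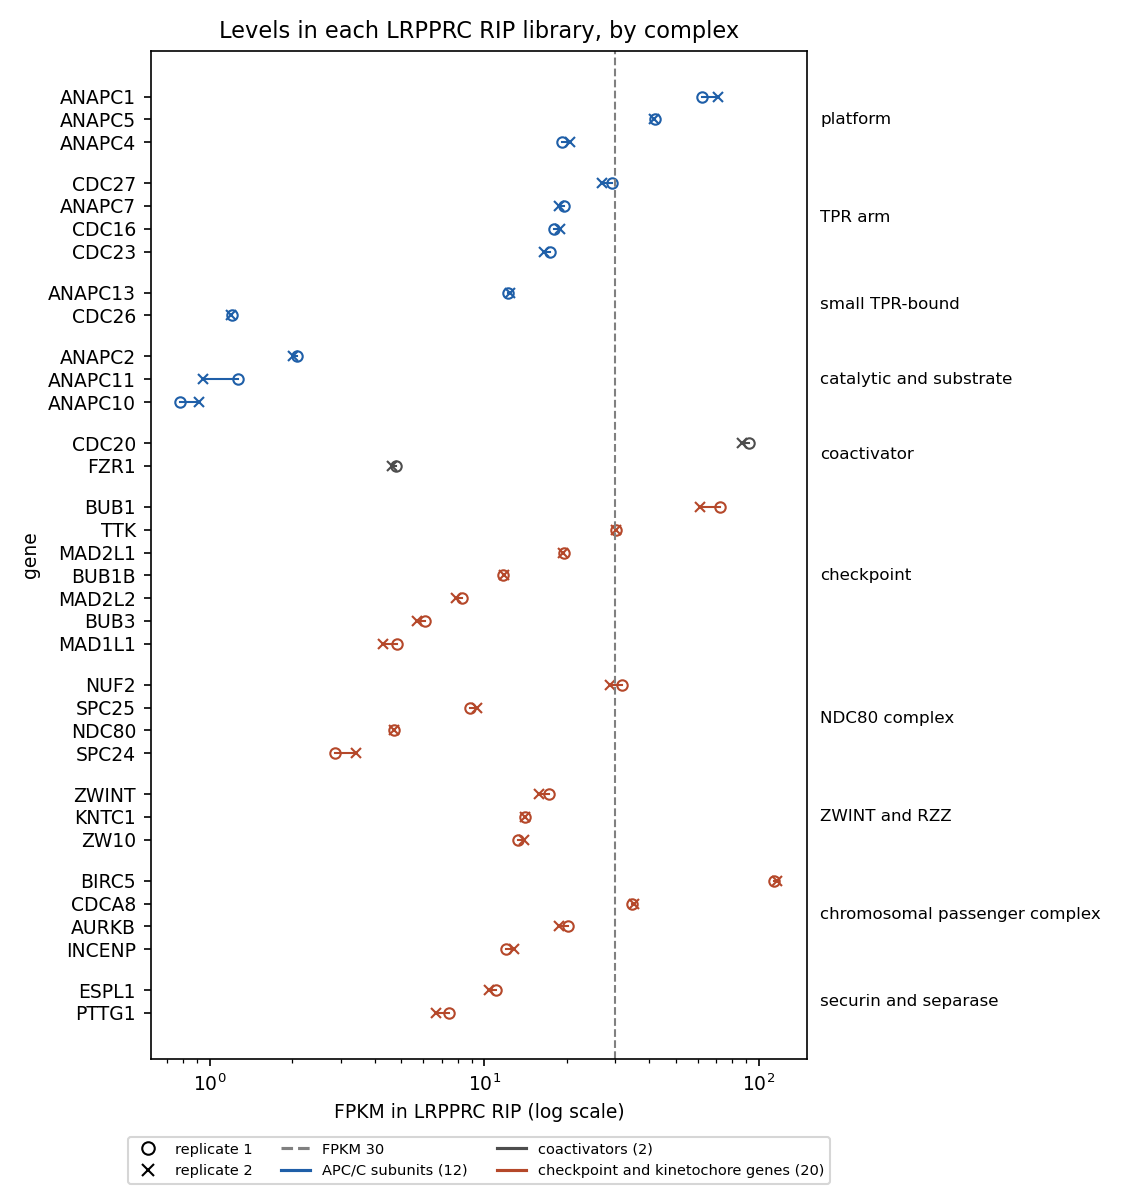
Level of each member (y axis, grouped by complex) in FPKM (x axis, logarithmic) in replicate 1 (circles) and replicate 2 (crosses), with FPKM 30 dashed. The catalytic and substrate-binding subunits of the APC/C lie between 0.784 and 2.08 FPKM, below all platform and TPR arm subunits in both libraries.

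The levels of the APC/C subunits differed, and those of the structural modules overlapped in part. ANAPC1, the largest scaffold subunit, had 62.0 FPKM in replicate 1 and 71.1 in replicate 2. ANAPC5, a second platform subunit, had 41.7 FPKM in replicate 1 and 41.6 in replicate 2. ANAPC4, which joins them in the platform, had 19.3 and 20.5 FPKM. The platform was thus led by ANAPC1, whose values in both libraries were above those of every other APC/C subunit. The gene of ANAPC1 lies on the minus strand of chromosome 2, from 111611639 to 111884690 of GRCh38, and its canonical transcript has 48 exons. Of its coding bases, 99.4% have a copy of at least 95% identity elsewhere on chromosome 2, so its reads could have been shared with these copies and its level is uncertain.

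The 4 subunits of the arm built of tetratricopeptide repeats (TPR), which bind the coactivator and the platform, lay close together. CDC27 had 29.2 FPKM in replicate 1 and 26.8 in replicate 2, just below FPKM 30. ANAPC7 had 19.6 and 18.7 FPKM, CDC16 had 17.9 and 18.9, and CDC23 had 17.4 and 16.5. The highest mean of the arm was 1.65 times the lowest, and ANAPC7 and CDC16 overlapped. ANAPC4 of the platform lay below CDC27 in both libraries, so platform and arm were not separate in level. A lncRNA on the same strand in GENCODE 44, an annotation that may be later than the authors', shares 19.0% of the exon bases of ANAPC7. For CDC27, 77.4% of coding bases have a copy of at least 95% identity on other chromosomes.

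The small proteins bound to this arm were lower. ANAPC13, of 225 coding bases, had 12.2 FPKM in replicate 1 and 12.4 in replicate 2. CDC26, which stabilises CDC16, had 1.2 FPKM in both libraries, while the mean of CDC16 was 18.4 FPKM. A copy on chromosome 7 covers 100% of the coding bases of CDC26, at up to 100% identity, so its level is uncertain too.

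The 3 subunits of the catalytic and substrate-binding module had the lowest median of the APC/C modules (1.11 FPKM). A low level was not particular to them, since CDC26 (1.2 FPKM) lay below ANAPC2. ANAPC2, the cullin subunit, had 2.08 FPKM in replicate 1 and 2.01 in replicate 2. ANAPC11, the RING subunit that recruits the ubiquitin-conjugating enzyme, had 1.27 and 0.951 FPKM. It was the only member of 34 whose libraries differed by more than 1.2 times, against 1008 of 10631 named genes with a mean of at least 1 FPKM. ANAPC10, which helps bind substrate degrons, had 0.784 FPKM in replicate 1 and 0.914 in replicate 2, the lowest mean of all 34 genes. All 3 lay below every platform and TPR arm subunit in both libraries, and none has a near-identical copy of its coding sequence. In GENCODE 44 another gene on the same strand shares 27.3% of the exon bases of ANAPC10. The APC/C subunits outside the 34, ANAPC15 (2.78 ± 0.178 FPKM, SD, n = 2) and ANAPC16 (0.889 ± 0.136, SD, n = 2), chosen after their values were seen, were also low. The 12 subunits differed 78.4 times between the highest and the lowest mean.

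The coactivators stood far apart. CDC20, the mitotic coactivator, had 91.8 FPKM (replicate 1) and 87.0 FPKM (replicate 2), and its mean was above 98.2% of named genes. FZR1, the coactivator of G1, had 4.76 FPKM in replicate 1 and 4.62 in replicate 2. The mean of CDC20 was 19.1 times that of FZR1. The gene of CDC20 lies on chromosome 1 from 43358981 to 43363203 (plus strand, GRCh38), with 11 exons, and 99.9% of its coding bases have a copy of up to 96.4% identity on chromosome 9. FZR1 lies on chromosome 19 from 3506311 to 3538334 and has no such copy.

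The checkpoint genes were led by the kinases BUB1 and TTK. BUB1, which phosphorylates histone H2A at the centromere and recruits other checkpoint proteins, had 72.1 FPKM in replicate 1 and 61.1 in replicate 2. TTK, the MPS1 kinase that starts the checkpoint signal, had 30.1 FPKM in replicate 1 and 30.3 in replicate 2, just above FPKM 30. The libraries of BUB1 differed more than those of most members (coefficient of variation 11.7%), but both stayed above every other checkpoint gene.

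The components of the mitotic checkpoint complex, which holds CDC20, were at unequal levels. MAD2L1 (MAD2) had 19.5 FPKM (replicate 1) and 19.4 FPKM (replicate 2), and its whole coding sequence has a copy of up to 97.7% identity on chromosome 14. BUB1B (BUBR1), which shares 5.91% of its exon bases with a read-through gene of GENCODE 44, had 11.7 and 11.8 FPKM. BUB3, the WD40 partner of BUB1 and BUB1B, had 6.08 and 5.68. CDC20, which is held in that complex, was above all 3 in both libraries, but 99.9% of its coding bases have a near-identical copy. MAD2L2 (REV7), a relative of MAD2 that also serves DNA polymerase zeta, had 8.28 FPKM in replicate 1 and 7.87 in replicate 2. MAD1L1 (MAD1), the kinetochore platform of MAD2, was the lowest checkpoint gene, with 4.81 and 4.29 FPKM. In GENCODE 44 another gene on the same strand shares 99.7% of its exon bases. The table uses older gene symbols, so whether that gene was in the authors' annotation is not known, and the level of MAD1L1 is uncertain.

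The NDC80 complex, the microtubule-binding rod of the outer kinetochore, had 4 transcripts at 4 distinct levels. NUF2 had 31.8 FPKM in replicate 1 and 28.6 in replicate 2, on either side of FPKM 30. Its partner at the microtubule-binding end of the rod, NDC80 (HEC1), had 4.68 FPKM in both libraries. SPC25 had 8.91 and 9.41 FPKM, and its partner SPC24 had 2.87 and 3.41. The 4 genes did not overlap, and the highest mean was 9.62 times the lowest.

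ZWINT and the RZZ complex, which recruits dynein and MAD1 to kinetochores, were close together among the 34 genes. ZWINT, which links RZZ to the kinetochore, had 17.2 FPKM in replicate 1 and 15.9 in replicate 2. KNTC1 (ROD) had 14.1 FPKM in both libraries, and ZW10 had 13.3 and 13.9. The highest mean of these 3 genes was 1.21 times the lowest. The RZZ complex as a whole was not as even, since its remaining subunit, ZWILCH, which is outside the 34, was higher, at 49.4 ± 1.61 FPKM (SD, n = 2).

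The chromosomal passenger complex, which corrects faulty attachments and is needed for cytokinesis, held the highest member. BIRC5 (survivin) had 114 FPKM (replicate 1) and 117 FPKM (replicate 2), and its mean was above 98.8% of named genes. CDCA8 (borealin) had 34.6 and 35.2 FPKM, and AURKB, the kinase of the complex, had 20.1 and 18.7. INCENP, the scaffold that activates AURKB, had 12 FPKM in replicate 1 and 12.8 in replicate 2. The 4 genes did not overlap, and the mean of BIRC5 was 9.27 times that of INCENP. BIRC5 lies on chromosome 17 from 78214186 to 78225636 (plus strand, GRCh38). Its canonical transcript of 2574 bases has 4 exons, 429 coding bases and a 3′ UTR of 2081 bases.

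Separase and its inhibitor, the pair released at anaphase, were both below FPKM 30. ESPL1 (separase) had 11.1 FPKM in replicate 1 and 10.4 in replicate 2. PTTG1 (securin), the APC/C substrate that holds separase inactive, had 7.47 and 6.65 FPKM. The mean of separase was 1.52 times that of securin, without overlap.

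The classes had similar medians and different spreads. The 12 APC/C subunits had a median of 17.7 FPKM in replicate 1 and 17.6 in replicate 2. The 20 checkpoint and kinetochore genes had a median of 12.7 FPKM in replicate 1 and 13.4 in replicate 2. The log2 ratio of the medians was 0.44 for the means and 0.48 and 0.39 for the single libraries (SD 0.061, n = 2), so it was above 0 in both. The interquartile range of the means was 1.83 to 21.9 FPKM for APC/C subunits and 7.82 to 22.2 FPKM for checkpoint and kinetochore genes, and these ranges overlapped for most of their length. Of the APC/C subunits 4 of 12 were below 5 FPKM, as were 3 of 20 checkpoint and kinetochore genes and 63.0% of named genes. Members of a class are not replicates, so no test was made over them. With FPKM multiplied by transcript length, which takes the division by length away, the log2 ratio was 0.11. Without BUB3, ZW10, MAD1L1 and MAD2L2, which are not generally described as mitotic transcripts, it was 0.21. It stayed above 0 in all 13 alternatives computed, though some of them, such as the TPM scale (0.44), could hardly change it. All 13 compared medians, so they cannot show whether the direction depends on that measure. The summed FPKM was 224 (replicate 1) and 231 (replicate 2) for the 12 APC/C subunits. For the 20 checkpoint and kinetochore genes it was 445 and 431, so their mean per gene was the higher in both libraries.

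**Figure D3:**
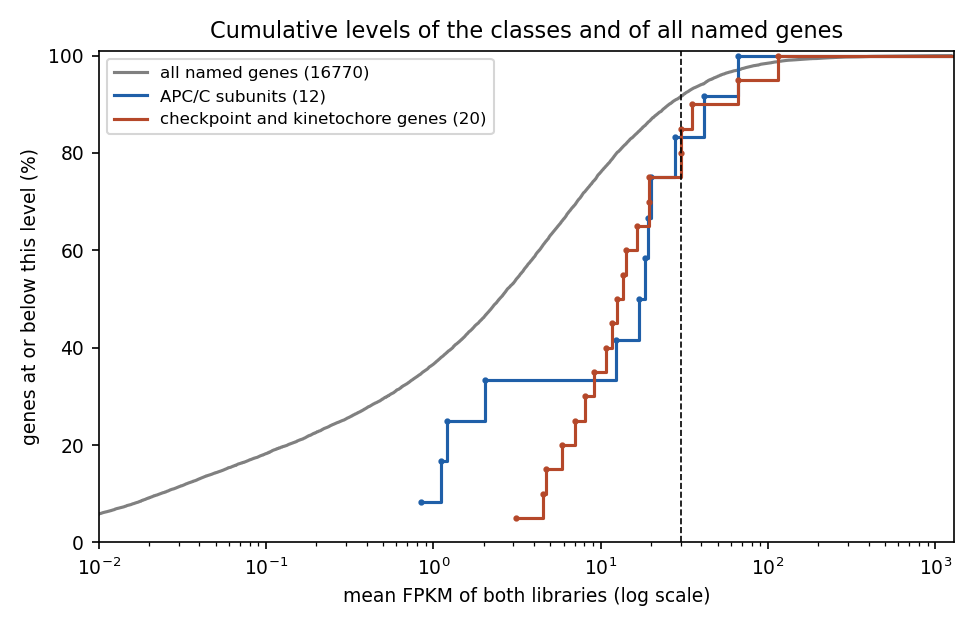
Percent of genes (y axis) at or below each mean FPKM (x axis, log scale) for the 12 APC/C subunits, the 20 checkpoint and kinetochore genes and all 16770 named genes, with FPKM 30 dashed. Both classes lie to the right of all named genes, and 4 APC/C subunits form a separate step at or below 2.04 FPKM.

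Levels within the checkpoint and kinetochore class were also set beside the promoter letters. The 11 genes with CHR letters had a median of 13.6 FPKM (range 4.68 to 66.6), and 3 of them were above FPKM 30. The 5 without CHR letters, MAD1L1, MAD2L2, PTTG1, SPC24 and AURKB, had a median of 7.06 FPKM (range 3.14 to 19.4), and none was above FPKM 30. The ranges overlapped. Among all named genes with a promoter entry, the 1472 with CHR letters had a median of 2.26 FPKM, with 9.38% above FPKM 30. The 10947 without had a median of 3.05 FPKM, with 9.07% above. Among those with a mean of at least 1 FPKM the order of the medians was the other way. The 895 with CHR letters had a median of 7.55 FPKM, with 15.4% above FPKM 30, and the 7339 without had 6.76 FPKM, with 13.5% above. BIRC5 and TTK, both above FPKM 30, had no promoter entry and are in neither group.

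The level was set beside transcript length, coding length and GC content. Across the 34 members, Spearman's rho with the mean FPKM was 0.29 for transcript length, 0.32 for coding length and -0.20 for GC content, the last against -0.19 across 15583 named genes. Across the 12 APC/C subunits, Spearman's rho of coding length and mean FPKM was 0.72, and that of GC content was 0.035. Across the 20 checkpoint and kinetochore genes, rho was 0.10 for coding length and -0.30 for GC content. Across 15543 named genes with a coding length, rho of coding length and mean FPKM was 0.13. These are descriptions across genes that share the same 2 libraries. A limit of 600 coding bases was chosen after the values were seen. The 4 APC/C subunits below it, ANAPC10, ANAPC11, ANAPC13 and CDC26, had a median of 1.16 FPKM, and the other 8 had a median of 19.5. The 2 checkpoint and kinetochore genes below it were BIRC5, the highest member, and SPC24, the lowest of its class. Of all named genes, 67.3% of those with fewer than 600 coding bases and 61.8% of the others were below 5 FPKM. The 4 members with a GC content of at least 60%, a limit also chosen afterwards, were FZR1, ANAPC2, MAD1L1 and MAD2L2. Their median was 4.62 FPKM and none exceeded 8.08, against a median of 16.7 FPKM for the other 30. All named genes split in the same way had medians of 1.06 and 3.08 FPKM. The part of length and of GC content in the levels was not tested.

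**Figure D4:**
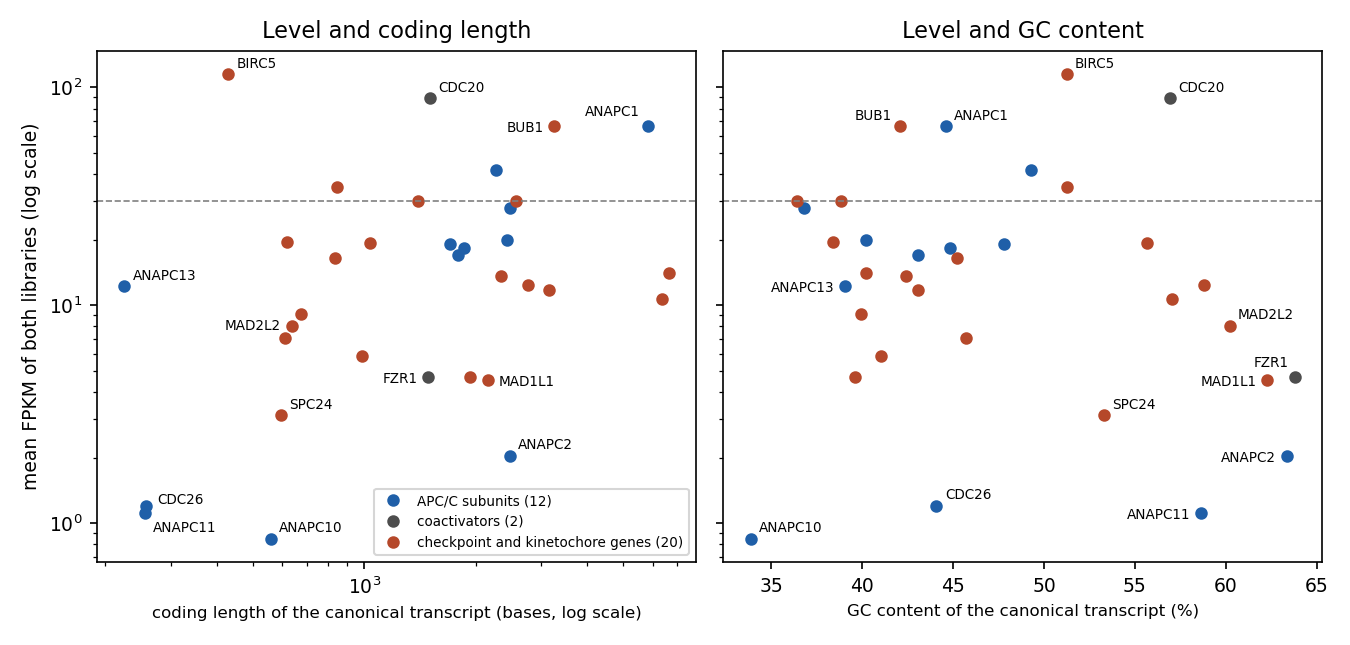
Mean FPKM (y axis, log scale) against coding length (left, bases, log scale) and against GC content (right, %) of the canonical transcript, 1 point per member, with FPKM 30 dashed. Of the 5 lowest members, 4 are APC/C subunits, and 3 of these have fewer than 600 coding bases.

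The order by FPKM is an order per length, and it changed where transcripts were long. Multiplied by transcript length in kb, ANAPC1 came first (516), followed by BIRC5 (297), BUB1 (250.4) and CDC27 (163). CDC20, second by FPKM, had rank 5 by this product (147), and BUB3, with a transcript of 7703 bases, moved from rank 26 to rank 17. ANAPC10, ANAPC11 and CDC26 had the 3 lowest products. The lengths are of the canonical transcripts of a later annotation, so the product need not recover the fragments of the authors' table.

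Further genes of the pathway also covered a wide range. All 36 genes of a list of further APC/C regulators, checkpoint and kinetochore proteins had a value, with a median of 7.26 FPKM. A mean above FPKM 30 was found for 3 of them (8.33%), against 8.46% of all named genes. UBE2C, the ubiquitin-conjugating enzyme that works with the APC/C, had 205 FPKM in replicate 1 and 190 in replicate 2, above every one of the 34 members. ANAPC11, the RING subunit it binds, had a mean of 1.11 FPKM. ZWILCH had 50.6 and 48.3 FPKM, and CENPN, which reads the centromeric nucleosome, had 33.7 and 32.3. The next in order were CENPA, the centromeric histone (29.7 FPKM), CENPF, a kinetochore-bound coiled-coil protein (27.3), and DSN1, a MIS12 complex subunit (20.6). Of this list 14 genes (38.9%) were below 5 FPKM, against 8 of 34 members (23.5%). The share was 63.0% of all named genes and 41.7% of those with a mean of at least 1 FPKM. For comparison, 13 genes of cohesin and its regulators had a median of 22.8 FPKM, with 4 above FPKM 30, and 10 G2/M kinases, cyclins and phosphatases had a median of 13.3 FPKM, with 3 above FPKM 30.

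The libraries were close for nearly all members. The median absolute log2 ratio of the libraries, on log2(FPKM + 1), was 0.076 over the 34 members and 0.055 over the 10631 named genes with a mean of at least 1 FPKM. Of the members, 21 were higher in replicate 1 and 13 in replicate 2, against 56.1% of those named genes that were higher in replicate 1. The largest coefficients of variation were those of ANAPC11 (20.5%), SPC24 (12.2%), BUB1 (11.7%) and ANAPC10 (10.9%), and the smallest those of KNTC1 (0.052%) and NDC80 (0.072%). Of the 8 members above FPKM 30 in the mean, 7 were above it in both libraries, and NUF2 was above it in replicate 1 alone. As a share of all FPKM in a library, the 34 members summed to 0.389% (replicate 1) and 0.387% (replicate 2).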

How the data were processed

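RNA co-precipitated with LRPPRC was sequenced in 2 libraries. The authors deposited 1 FPKM value for each gene in each library, made per their methods and processing notes with cutadapt 1.18, HISAT2 2.1.0 on GRCh38, SAMtools and StringTie 1.3.3b with an Ensembl annotation (release 101 per the methods), without pooling replicates. The strand setting of the counting is not stated in the methods or labels.

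The table has 21262 rows, of which 4460 were added by assembly. The named rows give 16770 distinct names. Where a name repeated, the row with the higher mean was kept. No member repeated. The rule for the members uses no measured value, but the members, classes and lists were chosen with earlier results of these data known. All 34 members are named, and of the list of further genes those above FPKM 30 and the next 3, with exceptions marked in the text. Library depth is unknown. Among 5405 rows under 0.3 FPKM, at most 1.41% shared a log2 ratio within 0.02, so read counts could not be recovered from the values and counting intervals were not computed.

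From the FPKM, means, SD over libraries, ranks and class medians were computed. Transcript length, exons, coding length and GC content are of the canonical transcripts of GENCODE 44 (GRCh38), matched for 92.9% of named genes and all members. Copies of coding sequences were sought on the chromosomes of GRCh38 with blastn 2.17.0 (at least 95% identity over at least 50 bases). Promoters are RefSeq windows of 300 bases on GRCh38.p14. The code of the motif search and of the class ratio was tested on simulated data. The simulated classes were much larger than those here, so this does not measure how reliable the ratio is. Protein sequences were not used here, so planned searches for degradation motifs were not run. Alternatives were thresholds of 20 and 50 FPKM, each library alone, both or either library, other class definitions, filters, pseudocounts of 0.1 and 0.01, multiplication by transcript length and the TPM scale. Software was pandas 2.3.3 with numpy 2.4.6 under Python 3.11.15, and matplotlib 3.10.9.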

Additional observations from a re-analysis of the deposited data

How the results depend on the processing

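Of 35 alternative values, 25 stayed within the spread set for their result (or within 1.5 times for a count) and 10 moved. That spread was the SD over the 2 libraries, except for the ratio between libraries, where it was the SD over the 34 members. A single library tends to lie within the SD of 2 libraries from their mean, so its label carries little weight. A reversal was sought for the ratio of class medians alone, and none was found. All 13 alternatives for it compared medians, whereas the mean per gene was higher in the checkpoint and kinetochore class. The log2 ratio of the class medians, 0.44, stayed above 0 in all 13 alternatives, though the TPM scale could hardly change it. It was 0.11 with FPKM multiplied by transcript length, 0.21 without BUB3, ZW10, MAD1L1 and MAD2L2, 0.35 without PTTG1 and ESPL1 and 0.37 with CDC20 added to the checkpoint and kinetochore genes. It was 0.58 with members of at least 600 coding bases only, an alternative chosen after seeing the data. In these the classes or the scale themselves changed. With a single library it ranged from 0.39 to 0.48, the APC/C median from 17.6 to 17.7 FPKM, and the checkpoint and kinetochore median from 12.7 to 13.4 FPKM. At FPKM 50, 1 APC/C subunit and 2 checkpoint and kinetochore genes were above the threshold. The share of all named genes above FPKM 50 was not computed, so nothing is read from these counts. Without members with a near-identical copy, also chosen after seeing the data, 1 APC/C subunit was above FPKM 30, because ANAPC1 was left out, and the log2 ratio was 0.45. The median member stood above 71.3% of the named genes with a mean of at least 1 FPKM, because low genes were left out. No paired analysis was possible because the study has a single group. Sequencing depth is unknown, and the precision of values near 1 FPKM, such as those of ANAPC10, ANAPC11 and CDC26, cannot be stated beyond the spread of 2 libraries.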
